A study of Mus musculus with 2 samples.

Results

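Plvap capillary endothelial cells of the mouse salivary gland were selected on their raw UMIs, the unique molecular identifiers that count single RNA molecules in a droplet. Barcodes under 500 UMIs or 300 genes were dropped, as were those with over 10% of their UMIs in mitochondrial genes. A capillary barcode then needed at least 5 UMIs summed over *Pecam1*, *Cdh5*, *Egfl7* and *Emcn* and at least 5 over *Plvap* and *Kdr*. At most 1 UMI was allowed over the arterial genes *Sema3g*, *Sox17* and *Gja4*, over the venous genes *Ackr1* and *Selp*, over *Cd3d*, *Cd3e* and *Cd3g*, and over *C1qa* and *Csf1r*, with 0 over *Cd79a* and *Ms4a1*. These limits were met by 538 of the 4917 kept NOD barcodes (10.9%, exact 95% binomial interval 10.1 to 11.8) and by 1421 of the 5674 kept CD1 barcodes (25.0%, 23.9 to 26.2), or 1959 of 10591 in all.

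The study compared female NOD/ShiLtJ mice, an inbred strain that develops autoimmune infiltration of the salivary glands and diabetes, with female mice of the outbred strain CD1, both untreated and 20 weeks old. The submandibular and sublingual glands of several mice were pooled into 1 library for each strain. The labels give 3 mice a pool and the study's methods 4, and the cells were depleted of EpCAM and Ter119 positive cells before sequencing, so neither the capillary share of a library nor its difference between libraries measures vessel density. With 1 library a strain, no test between strains can be made, and strain, disease, pool and library cannot be told apart.

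Capillaries are the vessels across which a gland exchanges water, solutes and signals with the blood. In secretory organs their endothelium is thin and often fenestrated, and *Plvap* encodes the protein of the diaphragms that span fenestrae and caveolae. Endothelial cells carry receptors for interferons, and when stimulated they make guanylate-binding and immunity-related GTPases, antiviral proteins and antigen-presenting molecules. They also supply much of the basement membrane on which they rest.

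Expression is given as UMIs summed over the capillary cells of a library per 1000000 of their UMIs (CPM), and differences as log2 of NOD over CD1. The 95% intervals are exact and cover counting error only, not the spread between mice. The 538 NOD cells summed to 3205493 UMIs and the 1421 CD1 cells to 10240063. The median cell held 5377.5 UMIs over 2373.5 genes in NOD, against 6706 over 2745 in CD1. The median mitochondrial share was 3.60% and 4.09%. Of the 24 barcodes with at least 500 UMIs that occur in both libraries, 5 were among the NOD and 3 among the CD1 capillary cells.

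The markers held in both libraries. *Plvap* stood at 2194 CPM in NOD cells and 2288 in CD1 cells, *Kdr*, the main receptor for VEGF, at 2103 and 2847, and *Emcn*, which encodes the surface mucin endomucin, at 2306 and 2809. These genes were part of the limits, so their level is a description. *Fabp4*, a fatty acid carrier of capillary endothelium that the limits did not use, stood at 4909 and 5124 CPM, against 10.2 and 14.3 CPM in T cells of the same libraries (1320 NOD and 98 CD1 barcodes with at least 3 UMIs of the *Cd3* genes and none of the endothelial genes). Arterial endothelial cells had nearly as much *Fabp4*, at 4001 and 4286 CPM, so it marks these cells as endothelium more than as capillary. *Plpp1*, a lipid phosphate phosphatase, stood at 2036 and 2650 CPM, against 6.25 and 2.86 in T cells and 796 and 1606 in arterial cells. The 18 pan-endothelial genes, which include *Cdh5* of the limits, summed to 21424 CPM in NOD cells and 23243 in CD1 cells (log2 -0.12, interval -0.13 to -0.11). This sum is therefore also a description.

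The limits capped some genes of other vessels, so their low level is in part set by the selection. *Vwf*, a clotting protein of larger vessels, had 0 NOD and 5 CD1 UMIs. *Cldn5*, a tight junction protein, stood at 2.81 and 2.83 CPM, where arterial cells of these libraries had 209.6 and 107. The arterial gate asked for at least 3 UMIs over *Sema3g*, *Sox17* and *Gja4* and held 157 NOD and 574 CD1 cells, while the venous gate held 3 and 5 and was not compared. The 16 arterial genes summed to 1469 and 1941 CPM (log2 -0.40), most of it *Cxcl12*, against 5598 and 5543 in arterial cells, and the 16 venous genes to 676 and 468 CPM (log2 0.53), with *Ephb4* the most abundant. All 6 venous genes with at least 20 CPM were higher in NOD, as were 54.2% of all genes at that level, with *Tll1*, a metalloprotease, at 163 and 82.7 CPM (log2 0.98). The 10 lymphatic genes summed to 157 and 162 CPM (log2 -0.04), nearly all from *Flt4* and *Maf*, and *Lyve1* had no UMI.

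The limits ran through a range of barcodes. In NOD, 61 barcodes had 2 arterial UMIs and met every other limit, with *Fabp4* at 5925 CPM and *Plpp1* at 1936. In CD1 there were 226 such barcodes, with *Fabp4* at 5106 CPM and *Plpp1* at 2239.5. At 3 or more arterial UMIs *Fabp4* was still at 4275 CPM in 136 NOD and 4400 in 533 CD1 barcodes, while *Plpp1* was at 856 and 1661. At 5 or 6 UMIs of *Plvap* plus *Kdr*, *Fabp4* stood at 2097 CPM in 29 NOD cells and 2944 in 38 CD1 cells. At 3 or 4 UMIs it stood at 3182 in 27 NOD barcodes and 3354 in 49 CD1 barcodes. At the limit on the 4 endothelial genes *Fabp4* stood at 2632 CPM in 6 NOD cells just inside (5 or 6 UMIs) and 1069 in 7 barcodes just outside (3 or 4), against 4423 in 20 and 5106 in 15 in CD1. *Plpp1* stood at 987 and 122 CPM there in NOD and at 1682 and 1319 in CD1. Among all barcodes within the endothelial and other-lineage limits, capillary cells made up 64.7% in NOD (538 of 831, interval 61.4 to 68.0) and 60.4% in CD1 (1421 of 2352, 58.4 to 62.4). This difference of 4.32 percentage points became 0.0821 points when 10 UMIs of *Plvap* plus *Kdr* were asked for and -2.64 when every barcode was first thinned to 2000 UMIs, so no direction is read from it.

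RNA of other lineages, some of which the limits capped, was low but not even between the libraries. The T cell list of 8 genes summed to 42.1 CPM in NOD cells and 11.3 in CD1 cells, the B cell list to 60.8 and 14.7, led by the plasma cell gene *Jchain*, and the NK list to 53.3 and 68.0. The macrophage list summed to 34.0 and 64.3 CPM, the mural list to 37.4 and 57.2, the Schwann list to 8.11 and 4.79, the epithelial list to 3.74 and 13.8 and the red cell list to 9.05 and 12.7. Of the mural UMIs, 90% of the 120 in NOD and 61.6% of the 586 in CD1 lay in 2 barcodes of each library. The gland secretory list stood at 73.6 in NOD cells and 182 in CD1 cells, against 835 and 14210.3 CPM in barcodes of 10 to 100 UMIs, which hold free RNA.

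The fibroblast list differed most. It summed to 298 CPM in NOD cells and 9.57 in CD1 cells (log2 4.96), and 95.6% of its 955 NOD UMIs lay in 2 barcodes. *Gsn*, *Dcn* and *Mgp*, which encode gelsolin, decorin and matrix Gla protein, had 475, 231 and 138 NOD UMIs. Without the barcodes that held at least 3 fibroblast UMIs (3 in each library, a setting chosen after the values were seen) they had 14, 11 and 21, and *Col3a1* had 0 in both libraries. Apart from these genes and the lineage marker lists, 191 ratios of lists and genes were recomputed without these barcodes, and each stayed within its interval.

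Over the 6836 genes with a mean of at least 20 CPM, the median log2 ratio was 0.04, with a 5th percentile of -0.64 and a 95th of 0.65. At least 2-fold higher in NOD were 100 genes (1.46%) and at least 2-fold higher in CD1 were 92 (1.35%). By any amount, 54.2% were higher in NOD and 45.8% in CD1. These shares are the background against which the lists below are read.

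**Figure D1:**
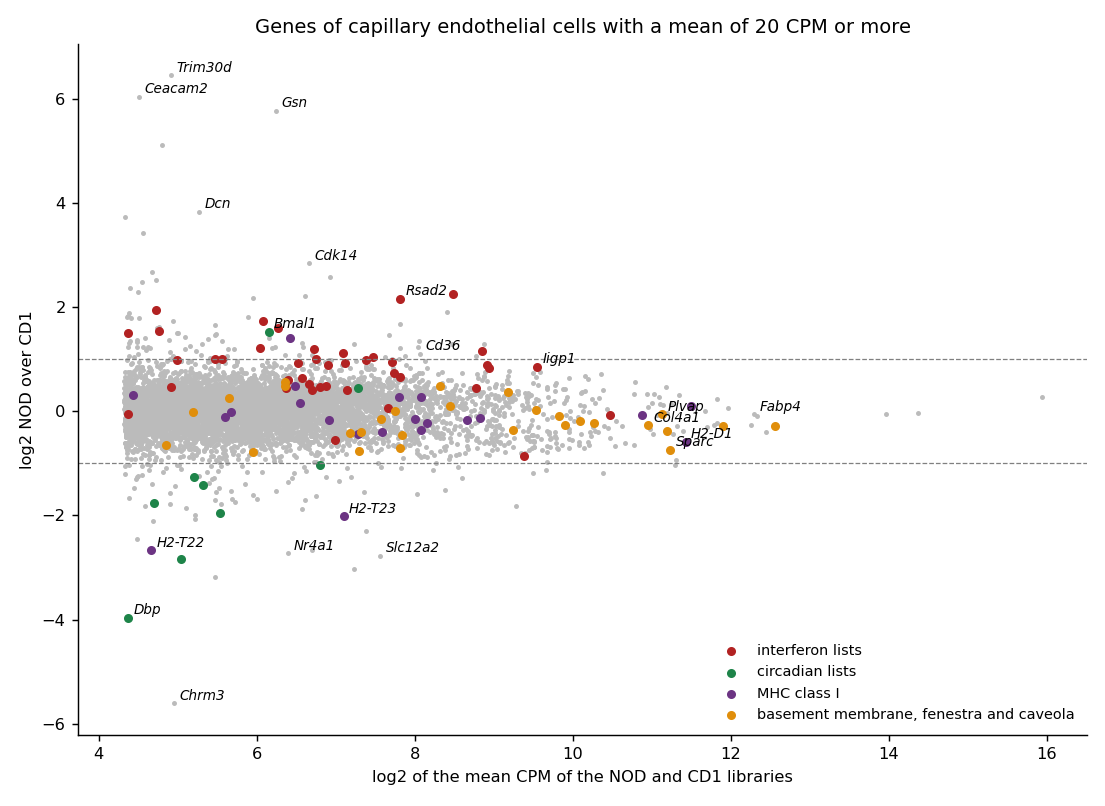
Each point is 1 of the 6836 genes, with log2 of its mean CPM over the 2 libraries on the x axis and log2 NOD over CD1 on the y axis. Interferon-list genes (red) lie mostly above 0 and circadian genes (green) on both sides, and dashed lines mark 2-fold.

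Most GTPase genes induced by interferon-gamma and above 20 CPM were higher in the capillary cells of NOD. The GTPase list, whose members attack membranes around intracellular pathogens, summed to 3924 CPM in NOD (interval 3856 to 3993) and 2274 in CD1 (2244 to 2303), which is 0.79 on the log2 scale (0.76 to 0.82). Of its 16 genes above 20 CPM, 15 were higher in NOD, 6 of them at least 2-fold, and the median log2 ratio was 0.87 beside 0.04 for all genes. *Iigp1*, the most abundant member and an immunity-related GTPase, stood at 967 CPM in NOD cells and 534 in CD1 cells (log2 0.86, interval 0.79 to 0.92). *Gbp7* stood at 630.2 and 353 CPM (log2 0.84), *Gbp4* at 505 and 369 (0.45) and *Gbp2* at 275 and 173 (0.66).

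The 6 members past 2-fold were *Gvin1* (log2 1.93, 41.8 and 10.9 CPM), *Tgtp2* (1.21), *Gbp5* (1.13, 187 and 85.4 CPM), *Igtp* (1.05), *Gbp6* (1.00) and *Tgtp1* (1.00). *Tgtp1* and *Tgtp2* are near-identical, as are several *Gbp* and *Gvin* genes, so the split of reads among them is uncertain. *Gbp6* and *Tgtp1* slipped under 2-fold in several of the other settings. The GTPase sum was not particular to capillaries. It gave 0.81 (0.76 to 0.87) in arterial cells, 0.67 in T cells and 1.62 in macrophages, taken as 431 NOD and 1746 CD1 barcodes with at least 5 UMIs of *C1qa* and *Csf1r*.

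The antiviral genes linked to type I interferon were likewise mostly higher in NOD. The list summed to 6537 CPM in NOD cells and 4679 in CD1 cells (log2 0.48, interval 0.46 to 0.51). Of 25 genes above 20 CPM, 22 were higher in NOD, 8 of them at least 2-fold, with a median of 0.92. *Mndal*, of the Ifi200 family of DNA sensors, stood at 589.6 CPM in NOD cells and 124 in CD1 cells (log2 2.25, 2.14 to 2.35). *Rsad2*, which encodes the antiviral enzyme viperin, stood at 367 and 82.5 CPM (2.15, 2.02 to 2.28).

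*Ifit1*, *Ifit2* and *Ifit3*, whose products bind foreign RNA, had log2 ratios of 1.60, 1.19 and 1.73, and the GTPase gene *Mx2* 1.51. *Ifi203* and *Ifi204*, relatives of *Mndal* with which reads may be shared, had 1.15 and 1.55. *Bst2*, which tethers virions to the cell surface, stood at 627 and 340.4 CPM (0.88). The members with the highest mean CPM went another way, as *Ifitm3*, an inhibitor of viral entry, stood at 1384 and 1452 CPM (-0.07) and its neighbour *Ifitm2* at 475 and 857 (-0.85, -0.93 to -0.77). *Ifi27* stood at 104 and 151 CPM (-0.55). The summed ratio therefore lay below the median of the members.

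**Figure D2:**
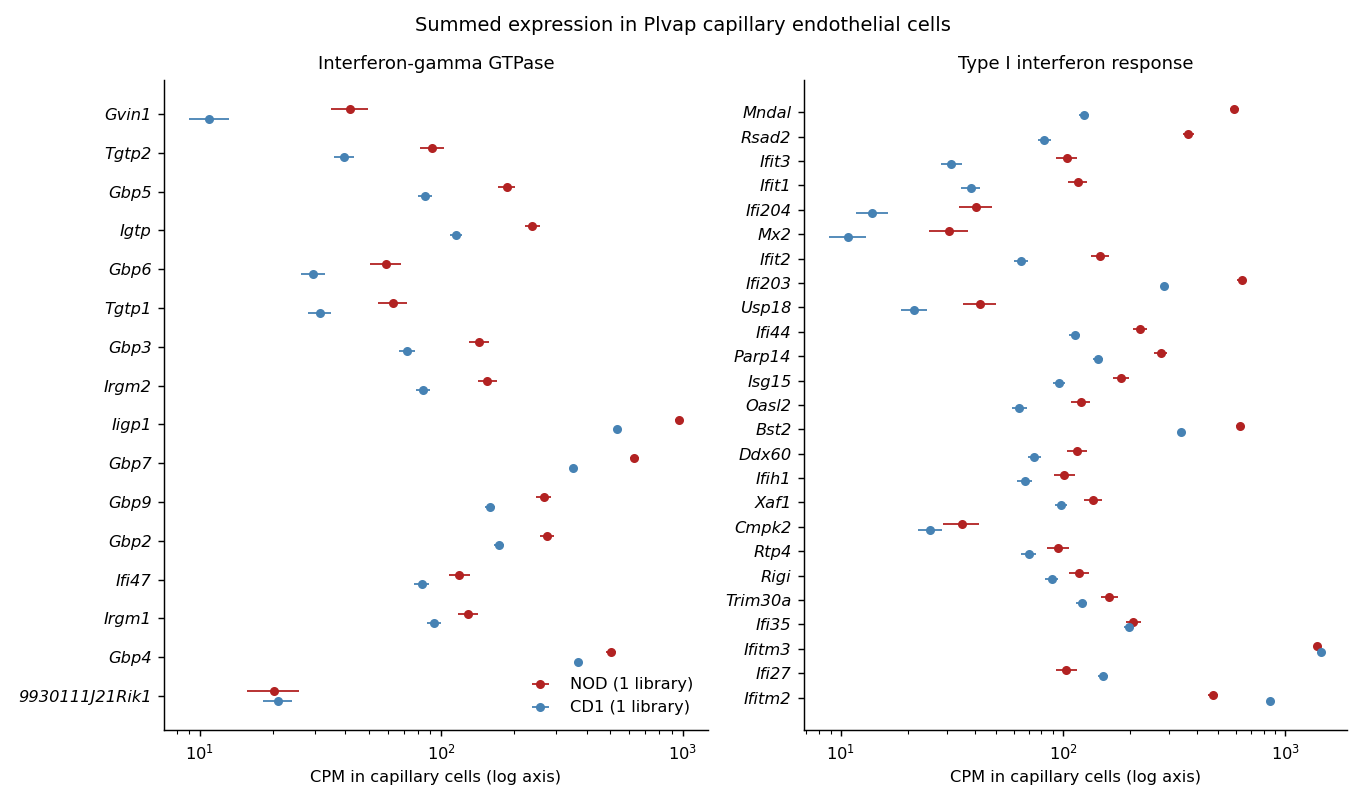
CPM of each list member with a mean of at least 20 CPM in the NOD (red) and CD1 (blue) capillary cells, on a log axis, with exact 95% counting intervals as bars. In the left panel 15 of 16 and in the right panel 22 of 25 genes stand higher in NOD.

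The signalling genes upstream of these lists differed by member. *Stat2* and *Irf7*, transcription factors that carry the interferon signal and are themselves induced by it, stood at 141 and 67.0 CPM (log2 1.07) and 66.5 and 32.0 CPM (1.05). *Irf9*, a DNA-binding partner of STAT2, stood at 84.2 and 51.9 (0.70). The receptor chains *Ifngr1* and *Ifnar2* stood at 212 and 221 CPM (-0.06) and 264 and 266 CPM (-0.01), within counting error of no difference. Of the 15 signalling genes above 20 CPM, 2 were at least 2-fold higher in NOD and none at least 2-fold lower. The 2 were *Stat2* and *Irf7*, which slipped under 2-fold in other settings, to log2 0.995 and 0.90. The list had a sum of 1993 and 1743 CPM (log2 0.19, 0.15 to 0.23).

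Promoter sequences of these genes, shown because most of these genes stood higher in NOD, hold a recurring word. The window from 250 bases before to 50 bases after each start was read from RefSeq for build GRCm38.p6, while the submitters' processing notes name GRCm39, so the coordinates place the promoters and not the counts. The word GAAANNGAAA, searched on both strands and typical of sites for the interferon-response factors, is in capitals in 80-base stretches before the starts of genes whose values are given above.
Rsad2: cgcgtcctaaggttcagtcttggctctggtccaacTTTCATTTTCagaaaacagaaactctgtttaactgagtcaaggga
Ifit3: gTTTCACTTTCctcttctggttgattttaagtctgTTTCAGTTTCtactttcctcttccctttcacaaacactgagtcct
Mndal: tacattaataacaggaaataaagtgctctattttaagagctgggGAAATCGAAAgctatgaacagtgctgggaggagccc
Gbp5: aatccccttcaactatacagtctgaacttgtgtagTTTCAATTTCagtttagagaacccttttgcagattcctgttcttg
Stat2: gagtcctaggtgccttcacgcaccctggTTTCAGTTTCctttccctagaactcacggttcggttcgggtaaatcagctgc
Each is written in the direction of its gene. They lie at chr12:26456528-26456607 (minus strand), chr19:34583372-34583451 (plus), chr1:173880188-173880267 (minus), chr3:142496734-142496813 (plus) and chr10:128270248-128270327 (plus).

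The word was in the windows of 10 of the 11 GTPase-list genes that matched the table, of 16, and of 12 of 18 matched type I genes, of 25. It was in 5 of 18 matched MHC class I genes, in 0 of 11 basement membrane genes and in 0 of 8 fenestra and caveola genes. Over all 27025 genes of the table the share was 3.99%, and over the 5404 matched genes above 20 CPM it was 4.13%. Of the 65 matched genes among those at least 2-fold higher in NOD, 20 held it (30.8%). The word TTCNNNGAA, the core of a gamma-activated site and the same on both strands, was in 6 of 11 GTPase genes and 4 of 18 type I genes, against 9.55% of all genes. A match is a description of the letters and not evidence of a bound site.

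Single capillary cells were compared after thinning each to 2000 UMIs, which left out 25 NOD and 66 CD1 cells. The median cell held 6 GTPase UMIs in NOD (10th to 90th percentile 2 to 17, 513 cells) and 3 in CD1 (1 to 10, 1355 cells). Of the NOD cells, 74.1% lay above the CD1 median and 25.1% above the CD1 90th percentile, and 1.17% of NOD and 8.93% of CD1 cells held none. The type I list gave medians of 11 and 8 UMIs, with 65.1% of NOD cells above the CD1 median. The higher GTPase sum was thus spread over the population of the NOD library, and the ranges overlapped widely.

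**Figure D3:**
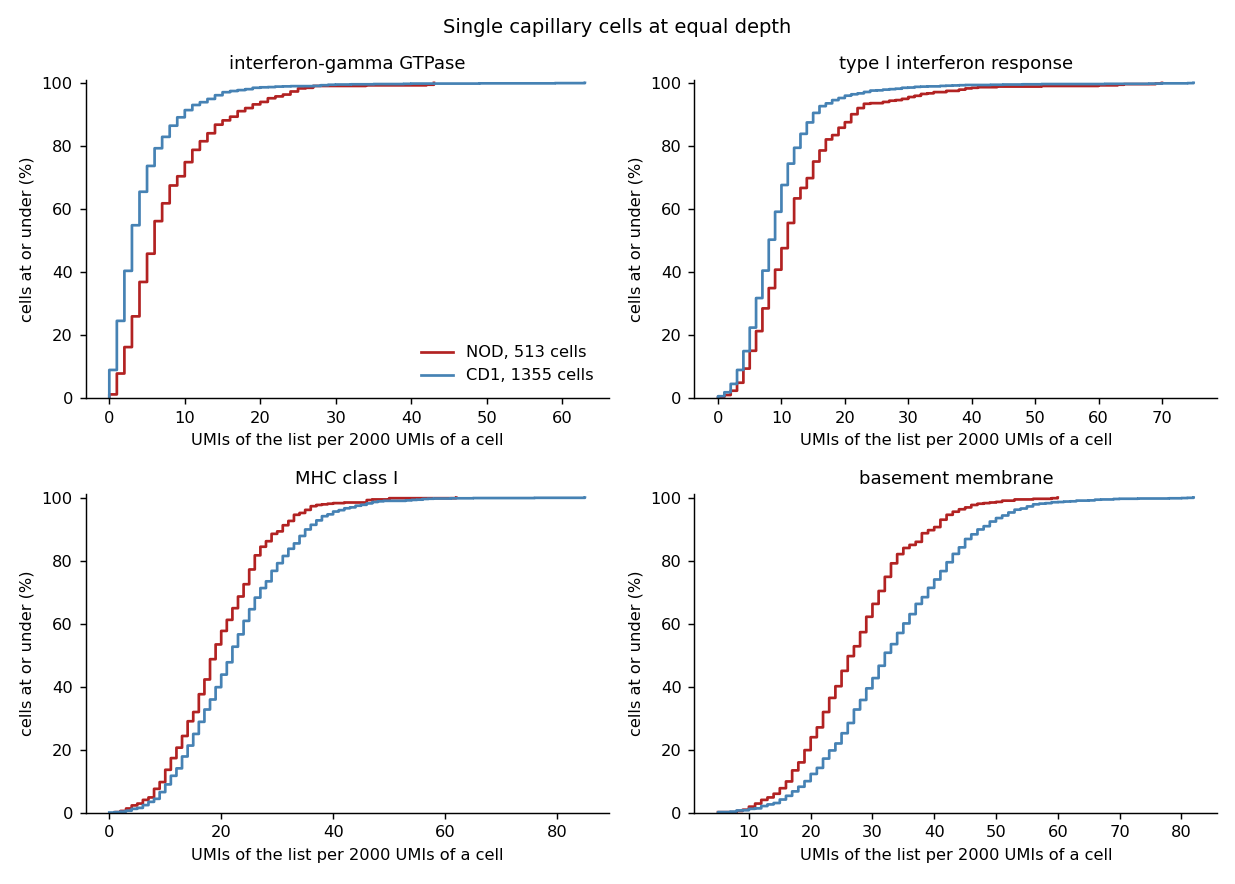
Share of capillary cells (y axis, %) at or under a number of UMIs of a list (x axis) after each cell was thinned to 2000 UMIs, for 513 NOD and 1355 CD1 cells. The NOD curve lies to the right for both interferon lists and to the left for MHC class I and the basement membrane.

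The summed MHC class I genes were slightly lower in NOD, unlike the interferon lists, and most of the difference came from *H2-D1*. The MHC class I list, whose products present peptides to CD8 T cells, summed to 10047 CPM in NOD cells and 11373 in CD1 cells (log2 -0.18, interval -0.20 to -0.16), with 1 gene at least 2-fold higher and 2 at least 2-fold lower of 21. The sum gave -0.10 (-0.13 to -0.07) in arterial cells but 0.13 (0.10 to 0.16) in T cells and 0.54 (0.52 to 0.56) in macrophages. *H2-D1*, a classical heavy chain, stood at 2206 and 3307 CPM (-0.58), *H2-K1* at 1832 and 1932 (-0.08) and the light chain *B2m* at 2987 and 2777 (0.11). The nonclassical genes *H2-T22* and *H2-T23* stood at 6.86 and 43.7 CPM (-2.67) and 54.3 and 219.8 CPM (-2.02). *H2-T23* gave -2.26 in arterial cells, -1.10 in T cells and -0.44 in macrophages. The class I genes belong to a multigene family that differs between strains, so reads that could not be placed on 1 copy make their levels uncertain. The direction of the sum is uncertain for the same reason.

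*Nlrc5*, the transactivator of class I genes, stood at 124 CPM in NOD cells and 47.2 in CD1 cells (log2 1.40, 1.21 to 1.59). *Tap1*, which moves peptides into the endoplasmic reticulum, stood at 104 and 74.7 (0.48), and the immunoproteasome subunit *Psmb8* at 435 and 475 (-0.13). The MHC class II list was low, at 511 CPM in NOD cells and 345 in CD1 cells (log2 0.57, 0.48 to 0.65), with *H2-Ab1* at 135 and 90.1 and its chaperone *Cd74* at 139 and 88.8. Barcodes of 10 to 100 UMIs held 5974 and 13494 CPM of this list, and subtraction of their profile turned the ratio to -0.76. That step counts every gland secretory UMI in the cells as free RNA, which may take away too much, so the direction is uncertain.

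No gene above 20 CPM in the chemokine, adhesion and checkpoint lists passed 2-fold. The chemokine list summed to 1342 CPM in NOD cells and 1909.9 in CD1 cells (log2 -0.51, -0.56 to -0.46), most of it *Cxcl12*, a homing signal for CXCR4-bearing cells, at 1006 and 1404 (-0.48). *Ackr3*, which scavenges CXCL12, stood at 218 and 389 CPM (-0.84) and *Cx3cl1* at 38.1 and 64.8 (-0.77). *Ccl5*, also a product of T cells, stood at 36.2 and 19.5 CPM (log2 0.89), and the ratio ranged from 0.85 to 3.82 over the other settings, highest with doublets removed by Scrublet, so it passed 2-fold in some of them. *Cxcl9*, an interferon-gamma target, stood at 18.7 and 7.03 CPM. *Cxcl9* had 60 and 72 UMIs and gave a log2 ratio of 1.41, or 0.72 as the mean of each cell's CPM. The adhesion list summed to 3481 and 3279.6 CPM (0.09, 0.05 to 0.12), with *Cd34* at 517 and 504 and *Icam1*, which leukocyte integrins bind, at 31.5 and 25.3 (0.32, -0.03 to 0.65). The most abundant adhesion member was *Pecam1*, which the limits used, at 2163 and 1939 CPM, so no direction is read from this sum.

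The selectin *Sele*, named after its values were seen, had 29 UMIs (9.05 CPM) in NOD and 3 (0.293 CPM) in CD1. The checkpoint and death ligand list summed to 1345 and 1038 CPM (log2 0.37, 0.32 to 0.42), and all 6 of its genes above 20 CPM were higher in NOD. *Cd274*, which encodes the T cell inhibitor PD-L1, stood at 145 and 76.5 CPM (0.93, 0.76 to 1.09), and *Tnfsf10*, the death ligand TRAIL, at 617 and 504 (0.29).

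The summed fenestra and caveola genes were slightly lower in NOD, while *Cav1* and *Plvap* were nearly level. The fenestra and caveola list summed to 10887 CPM in NOD cells and 12811 in CD1 cells (log2 -0.23, -0.25 to -0.22), with 9 of 11 genes lower and none past 2-fold. In arterial cells this list gave -0.44 (-0.47 to -0.41), so the lower sum was not particular to capillaries. *Plvap*, which the limits used, stood at 2194 and 2288 CPM (-0.06), so its level, and any part it has in this sum, is a description. *Plpp3*, the most abundant, stood at 3446 and 4212 CPM (-0.29), *Cav1*, the main coat protein of caveolae, at 744 and 736 (0.02), and the cavins *Cavin2* and *Cavin3* at 867 and 1039 (-0.26) and 170.3 and 279 (-0.71). *Pecam1*, which the limits used, was the most abundant member of the junction list, at 2163 and 1939 CPM (0.16). The list summed to 6079.6 and 6027 CPM (0.01, -0.01 to 0.04), which is therefore a description. In it *Nectin2*, an adhesion molecule that receptors on T and NK cells bind, stood at 67.1 and 21.3 CPM (1.66, 1.38 to 1.93), while the junction genes *Jam3* and *Jup* had -0.51 and -0.58.

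The capillary subtype list summed to 15730.5 CPM in NOD cells and 19286 in CD1 cells (log2 -0.29, -0.31 to -0.28), and 12 of its 14 genes above 20 CPM were lower in NOD. Most of this difference came from *Igfbp7*, its most abundant member at 5416 and 6605 CPM, and *Sparc*. Both are also in the basement membrane list below, so the 2 sums are not independent. In arterial cells the capillary subtype list gave -0.31 (-0.34 to -0.29). *Gpihbp1*, which carries lipoprotein lipase to the capillary surface, stood at 351 and 629 CPM (-0.84, -0.94 to -0.75). *Cd300lg*, *Rgcc* and *Car4* had -0.57, -0.29 and -0.37. *Ednrb*, the endothelin B receptor, stood at 130.1 and 392 CPM (-1.59, -1.74 to -1.45). The scavenger receptor *Cd36*, which takes up fatty acids, went the other way, at 364 and 170.4 CPM (1.10, 0.99 to 1.20), and the water channel *Aqp1* stood at 153 and 79.5 (0.95).

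*Cd36* was higher in NOD in arterial cells too (1.26), whereas *Aqp1* had 0.17 there (-0.09 to 0.43). The lipid handling list as a whole summed to 7843 and 8106 CPM (-0.05, -0.07 to -0.03, but 0.046 with free RNA subtracted), and the solute transporter list to 1865 and 1477 (0.34, 0.29 to 0.38). *Abcg2*, an efflux pump, stood at 484 and 291 CPM (0.73). The tip and sprouting list summed to 1080.3 and 1385 (-0.36), with *Ramp3*, a partner of the adrenomedullin receptor, at 237 and 402 (-0.76) and *Mcam*, an adhesion molecule, at 36.2 and 81.7 (-1.18).

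VEGF and angiopoietin receptor genes differed by less than 2-fold. The VEGF receptor list summed to 11323 CPM in NOD cells and 13245 in CD1 cells (log2 -0.23, -0.24 to -0.21), and none of its 10 genes above 20 CPM was higher in NOD. Arterial cells gave -0.46 (-0.49 to -0.43) for this list, so the lower sum was not particular to capillaries. *Flt1*, *Nrp1* and *Kdr* had -0.10, -0.27 and -0.44. *Kdr*, at 2103 and 2847 CPM, was part of the limits, so its share of the capillary sum and count is a description. *Vegfc*, a ligand for *Flt4*, stood at 31.8 and 83.6 CPM (-1.39, -1.70 to -1.10), and in arterial cells it had 0.40 (0.18 to 0.60). The angiopoietin and Tie list summed to 3434 and 3105 (0.15, 0.11 to 0.18), with the receptor *Tek* at 775 and 614 (0.34) and its phosphatase *Ptprb* at 2039 and 1940.0 (0.07). The Notch list stood at 811 and 859 CPM (-0.08), with the receptor *Notch1* at 258 and 230.2 (0.16) and the target gene *Nrarp* at 23.4 and 61.0 (-1.38).

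The BMP and TGF-beta list summed to 5833 CPM in NOD cells and 5287 in CD1 cells (log2 0.14, 0.12 to 0.17), and 13 of its 19 genes above 20 CPM were higher in NOD. *Bmp6* stood at 215 and 117 CPM (0.87), the co-receptor *Tgfbr3* at 298 and 149 (just under 1.00, and up to 1.09 in other settings), and *Id1* and *Id3*, targets of BMP signals, at 581 and 387 (0.58) and 1234 and 966 (0.35). *Ltbp4*, which binds latent TGF-beta in the matrix, stood at 190.0 and 413 (-1.12). In arterial cells the list had 0.00 and *Id1* 0.21. The shear and nitric oxide list stood at 2956 and 3146 CPM (-0.09, but 0.0022 with free RNA subtracted) and the coagulation list at 1565 and 1414 (0.15), in which *Entpd1*, the ectoenzyme CD39 that degrades ATP, had 389.6 and 236 CPM (0.72).

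The basement membrane sum was lower in NOD, mostly through *Igfbp7* and *Sparc*. The list summed to 13891 CPM in NOD cells and 16983 in CD1 cells (log2 -0.29, -0.30 to -0.27), with 12 of 17 genes above 20 CPM lower and none past 2-fold. *Sparc*, a collagen-binding matricellular protein, stood at 1801 and 3007 CPM (-0.74, -0.78 to -0.70), *Igfbp7*, which like *Sparc* is also in the capillary subtype list, at 5416 and 6605 (-0.29) and the collagen IV chains *Col4a1* and *Col4a2* at 1802 and 2174 (-0.27) and 1132 and 1326 (-0.23). Without *Sparc* and *Igfbp7*, a setting chosen after the values were seen, the sums were 6674 and 7372 CPM (-0.14, -0.17 to -0.12). *Lama3*, a laminin chain, went the other way at 654 and 507 (0.37). At 2000 UMIs a cell, the median was 27 UMIs of the list in NOD cells and 32 in CD1 cells, and 25.1% of NOD cells lay above the CD1 median. In arterial cells the list had -0.39 (-0.41 to -0.36).

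**Figure D4:**
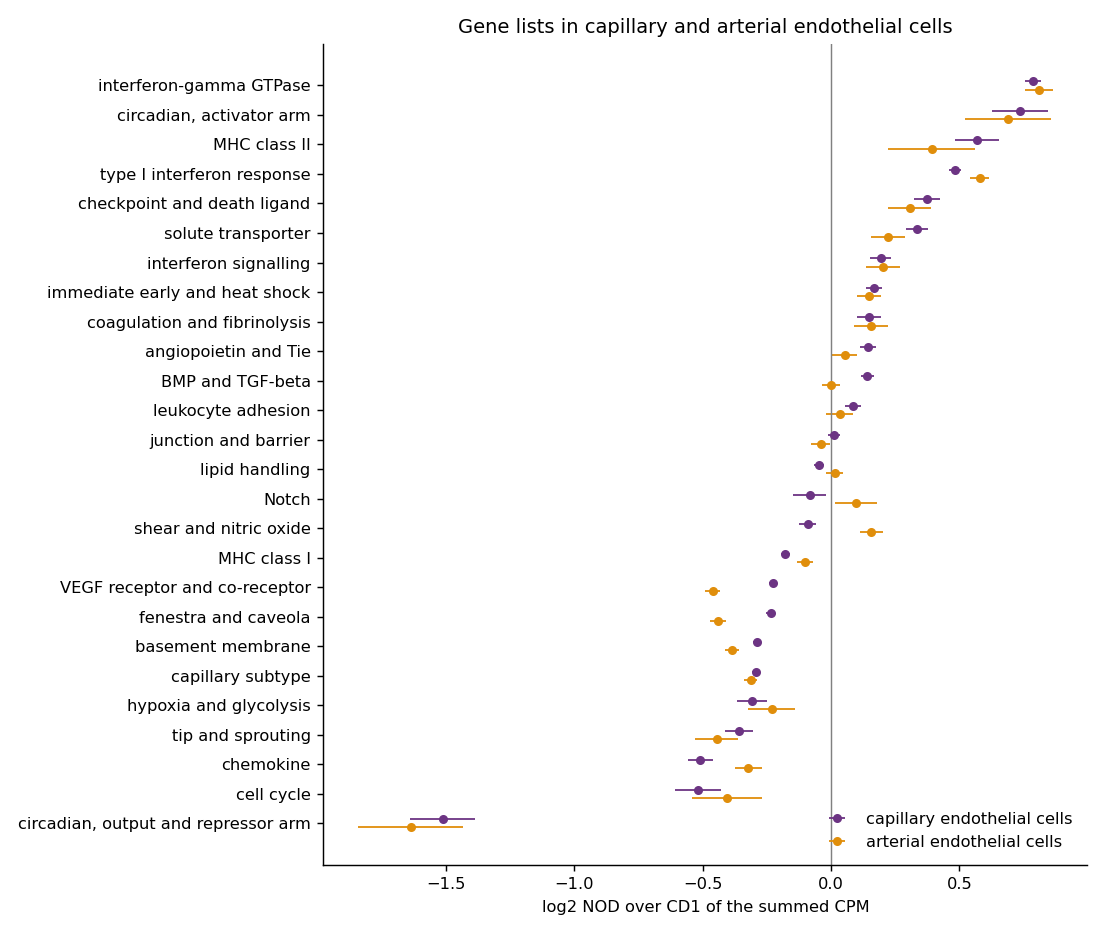
Log2 NOD over CD1 of the summed CPM of gene lists (x axis), without the marker lists of other lineages and vessels, the pan-endothelial list and the gland secretory list, in capillary (purple) and arterial (orange) endothelial cells, with exact 95% counting intervals as bars. The interferon lists lie right of 0 and the basement membrane list left of 0 in both, and of the lists plotted the circadian output list lies furthest left at -1.51 and -1.64.

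Clock genes split by arm, in a list drawn up after the leading genes had been seen. The output and repressor arm summed to 179 CPM in NOD cells and 511 in CD1 cells (log2 -1.51, -1.64 to -1.39), and all 7 of its genes above 20 CPM were at least 2-fold lower in NOD. *Dbp*, an output factor, had 8 NOD and 398 CD1 UMIs (2.50 and 38.9 CPM, log2 -3.96), and the repressor *Nr1d1* stood at 8.11 and 57.8 CPM (-2.83). *Nr1d2*, *Tef*, *Hlf*, *Per3* and *Bhlhe40* had log2 ratios of -1.96, -1.76, -1.41, -1.25 and -1.04. *Bhlhe40* slipped under 2-fold, to -0.87, in another setting. The activator arm summed to 325 and 195 CPM (0.74, 0.63 to 0.85), with *Bmal1* at 105 and 36.5 (1.53), its partner *Clock* at 180.3 and 132 (0.45) and *Npas2* at 21.2 and 5.27.

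Arterial cells gave -1.64 and 0.69 for the arms, T cells 0.00 and 0.56, and macrophages -0.40 and 0.44. The sources used here do not give the hour at which each pool was collected, and its part in these values was not tested. Immediate early and heat shock genes, which dissociation can induce, summed to 3794 CPM in NOD cells and 3379 in CD1 cells (0.17, 0.14 to 0.20). *Nr4a1*, an early orphan receptor, stood at 22.1 and 147 CPM (-2.73, -3.09 to -2.38) and the chaperone *Hsph1* at 34.9 and 13.2 (1.41), while *Jun* stood at 785 and 632 (0.31). The hypoxia and glycolysis list summed to 938 and 1161 (-0.31) with *Eno1* at 25.0 and 61.3 (-1.30), and the cell cycle list to 380.0 and 544 (-0.52), mostly the tubulin gene *Tubb5*.

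Ranked by the interval bound nearest 0, the 15 leading genes of each strain were mostly not members of the lists. Higher in NOD were *Trim30d* (59.6 and 0.684 CPM, log2 6.45), *Gsn*, *Ceacam2* (44.9 and 0.684, 6.04), *BC023105*, *Dcn*, *Csnk2a1-ps3*, *Mgp*, *Cdk14*, *Gvin-ps6*, *Thsd7a*, *Mndal*, *Trim34a*, *Ifi207*, *Rsad2* and *Zfpm2*. *Trim30d*, *Ceacam2*, *BC023105*, *Gvin-ps6*, *Trim34a* and *Ifi207* have close copies in the genome, and *Csnk2a1-ps3* is a pseudogene, so reads may be divided between copies. Of the NOD UMIs of *Gsn*, *Dcn* and *Mgp*, 97.1%, 93.9% and 81.9% lay in 1 barcode, and without the barcodes with fibroblast RNA their log2 ratios fell from 5.76, 3.83 and 3.43 to 1.25, 1.83 and 1.27. *Trim30d* was as far apart in arterial cells (6.99) and stood at 39.0 and 0 CPM in T cells.

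*Cdk14*, a cyclin-dependent kinase, stood at 177 and 24.7 CPM in capillary cells (log2 2.84, 2.62 to 3.06) and had 2.18 in arterial cells, but -0.91 in T cells and -1.17 in macrophages. *Zfpm2*, a cofactor of GATA factors, stood at 160.4 and 34.5 CPM (2.22), and *Thsd7a*, an endothelial membrane protein, at 44.0 and 6.93 (2.67).

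Higher in CD1 were *Chrm3*, *Dbp*, *Gm15772*, *Gm53236*, *Slc12a2*, *Nr4a1*, *Cwc22*, *Nr1d1*, *Cyp26b1*, *H2-T22*, *Prol1*, *H2-T23*, *Mir6236*, *Rtl8a* and *Rps6*. *Chrm3*, the muscarinic receptor that drives saliva secretion in acinar cells, had 4 NOD and 623 CD1 UMIs in capillary cells (1.25 and 60.8 CPM, log2 -5.61, -7.49 to -4.24). With barcodes of up to 20% mitochondrial UMIs kept, its log2 ratio was -2.71. Arterial cells had 52.8 and 110.2 CPM (-1.06, -1.46 to -0.69), and macrophages 1388 and 419. Barcodes of 10 to 100 UMIs held 52.7 and 141 CPM of *Chrm3*.

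*Slc12a2*, the sodium, potassium and chloride cotransporter, stood at 48.0 and 330.1 CPM (-2.78, -3.02 to -2.55) and had -2.54 in arterial cells. *Cyp26b1*, which degrades retinoic acid, stood at 56.2 and 276 CPM (-2.30), with -3.89 in arterial cells. *Cwc22*, a splicing factor, was lower in NOD in all 4 cell classes, at -2.65, -2.19, -2.27 and -2.52. *Gm53236* and *Prol1* were at 7274 and 2527 CPM in the CD1 barcodes of 10 to 100 UMIs, against 79.8 and 37.7 CPM in CD1 capillary cells, so free RNA moves with their ratio. Subtraction of free RNA left nothing of either gene in NOD capillary cells, so no ratio could be computed. The part of free RNA in their values was not tested.

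**Figure D5:**
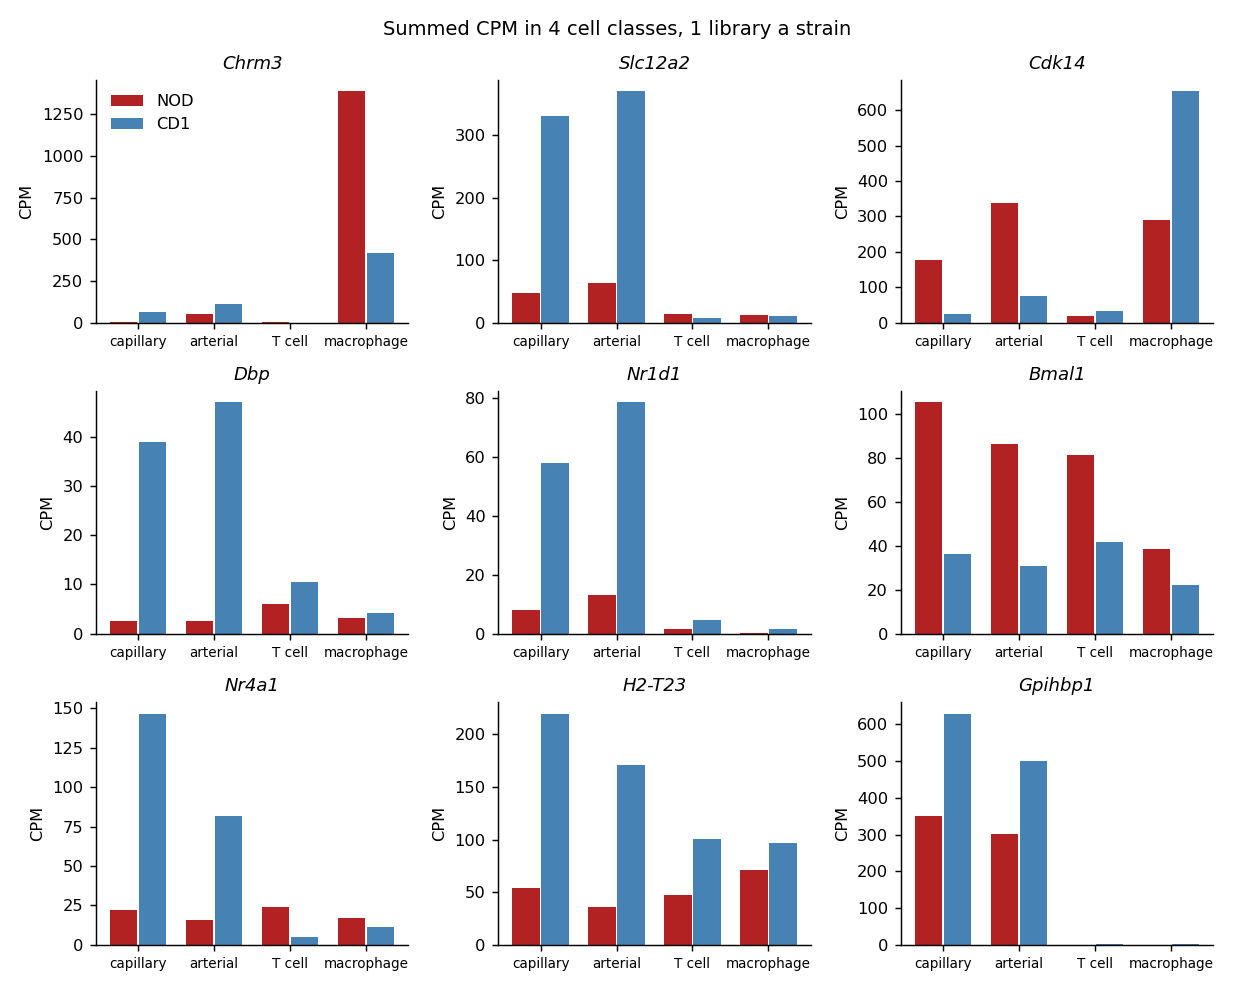
Summed CPM (y axis, from 0) of 9 genes in capillary, arterial, T and macrophage barcodes of the NOD (red) and CD1 (blue) libraries, 1 value a bar and no error shown. *Slc12a2*, *Dbp* and *Nr1d1* stand higher in CD1 in both endothelial classes, and *Cdk14* stands higher in NOD in those but lower in T cells and macrophages.

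Capillary cells also differed from arterial cells of the same libraries in genes that the limits did not use. On the scale log2 of CPM plus 1, the genes highest over arterial cells in both libraries were *Kirrel3*, *Vdr*, *Brip1*, *Slc28a2*, *Nt5e*, *Mfap2*, *Chrm2*, *Lepr*, *Car8* and *Rmst*. *Kirrel3*, an adhesion molecule, stood at 299 CPM in capillary and 75.9 in arterial cells in NOD (1.96) and at 109 and 35.6 in CD1 (1.59). *Chrm2*, a second muscarinic receptor, stood at 197 and 35.5 in NOD (2.44) and 126 and 51.3 in CD1 (1.28). *Vdr*, the vitamin D receptor, gave 2.33 and 1.56, and *Nt5e*, the ectoenzyme CD73 that makes adenosine, 2.35 and 1.33.

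Higher in arterial cells were *Mgp*, *Glul*, *Tgfb2*, *Mecom*, *Plcl1*, *Atp13a3*, *Ptprr*, *Kank4*, *Alpl* and *Azin1*. *Glul*, glutamine synthetase, had -3.04 in NOD and -2.91 in CD1, and the transcription factor *Mecom* -2.24 and -2.41.

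Within each library some genes varied from cell to cell far more than counting gives. The Fano factor is the variance over the mean of UMIs at 2000 UMIs a cell. It had a median of 1.09 in NOD cells and 1.07 in CD1 cells over the 8238 genes with a value in both libraries. Ranked by the smaller of the libraries' values, it was highest among these for *Gm26917*, a noncoding RNA at 68576 and 56627 CPM, with 59.0 and 40.6. For the next, the duct kallikrein *Klk1b26*, a secretory product of other cells, it was 17.2 and 10.6. Among endothelial genes it was 6.21 and 6.15 for *Fabp4*, 4.52 and 5.54 for *Cxcl12*, 3.83 and 3.64 for the retinol carrier *Rbp7* and 3.61 and 5.44 for *Igfbp3*. For *Iigp1* it was 2.97 and 3.46.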

How the data were processed

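Single-cell RNA-seq counts of 1 pooled library for each strain were used. Per the file headers, the authors deposited unfiltered UMI counts per gene and barcode. The submitters' processing notes name Cell Ranger 8.0.0, GRCm39, Seurat 5.0.1 and R 4.3.1. The libraries held 52790319 (NOD) and 56483149 (CD1) UMIs over 50768 genes, with 37 mitochondrial rows. Python 3.11.15, numpy 2.4.6, scipy 1.17.1, pandas 2.3.3 and scanpy 1.11.5 were used. UMIs were summed over the gated barcodes. CPM have exact Poisson intervals, ratios conditional binomial intervals and shares Clopper-Pearson intervals, all at 95%, for counting error only. Genes with a mean CPM of at least 20 were counted past 2-fold. The ratio step was tested on simulated data.

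1 gene of the interferon signalling list is not reported here and entered none of its sums. The members, 40 gene lists and settings were chosen with earlier results of these data known, and the 2 circadian lists after the values were seen. Named were the markers, list members past 2-fold or with the most UMIs, the 15 leading genes of each strain by the interval bound nearest 0, and the 10 genes with the largest smaller ratio of capillary to arterial cells. The venous gate was too small to enter it. A few further list members were named for their role after their values were seen. Doublets were kept, and removal with Scrublet was an alternative.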

Additional observations from a re-analysis of the deposited data

Results flagged for a closer look

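Lists whose NOD over CD1 ratio lay on opposite sides of 0 in capillary and arterial cells, each with an interval clear of 0, were picked out. The summed Notch list had a log2 ratio of -0.083 in capillary cells (interval -0.15 to -0.02) and 0.10 in arterial cells (0.01 to 0.18). The summed shear and nitric oxide list had -0.090 (-0.12 to -0.06) and 0.16 (0.11 to 0.20). With free RNA subtracted the capillary values became -0.0102 for Notch and 0.0022 for shear and nitric oxide, so the sign of the latter turned. Among the markers of other lineages, the mural list had -0.61 (-0.91 to -0.33) in capillary cells and 0.73 (0.50 to 0.95) in arterial cells, on 120 NOD and 586 CD1 UMIs and on 228 and 602. Of the capillary UMIs, 90% in NOD and 61.6% in CD1 lay in 2 barcodes. The Schwann list had 0.76 (0.02 to 1.48) on 26 and 49 UMIs and -3.22 (-4.86 to -1.97) on 5 and 204. The difference between the cell types was not tested, since each strain has 1 library, and the Notch and shear ratios are far below 2-fold.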

How the results depend on the processing

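No paired analysis was possible because each strain has 1 library. The count of genes at least 2-fold higher in NOD (100) became 2605 without a minimum CPM, and the count for CD1 (92) became 816 without it and 185 with free RNA subtracted. The MHC class I log2 ratio (-0.18) stayed negative, at -0.15 with 10 UMIs of *Plvap* plus *Kdr*, -0.13 with barcodes thinned before the gate, -0.22 with median-of-ratios scaling, -0.21 with free RNA subtracted and -0.20 without any UMI of 7 genes of other lineages. None of these settings changes how reads were placed among the class I copies. The GTPase ratio (0.79) moved to 0.84 with thinning, 0.74 with median-of-ratios scaling and 0.86 with free RNA subtracted. The capillary share of endothelial barcodes, 4.32 percentage points higher in NOD, became 0.0821 with 10 UMIs of *Plvap* plus *Kdr* and -2.64 with thinning. Subtraction of free RNA, set at 8.82% of the NOD and 1.28% of the CD1 UMIs by counting every gland secretory UMI as free RNA, an upper value, turned shear and nitric oxide from -0.09 to 0.0022, lipid handling from -0.05 to 0.046 and MHC class II from 0.57 to -0.76. The causes were not tested. Scrublet removed 5 NOD and 26 CD1 capillary cells and took *Gsn* from 5.76 to 0.77 and *Dcn* from 3.83 to 0.01. Over the 11 alternatives that gave ratios, each of the 72 list and gene ratios past 2-fold kept its sign where it could be computed. Of the 72, 12 fell under 2-fold in at least 1 alternative. Some, *Gm53236* and *Prol1* among them, had no ratio with free RNA subtracted, so that setting says nothing of their sign. Genes with few UMIs, such as *Dbp* with 8 and *Chrm3* with 4 in NOD, have wide intervals, and differences between mice of a pool cannot be seen at any depth.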
